A study of Homo sapiens with 6 samples.

Results

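The messenger RNAs of the heat shock proteins and of their DNAJA and DNAJB partners were followed by RNA sequencing of 6 libraries; their labels name HepG2, a line established from a human liver tumour. Members were taken by symbol from the deposited count table: all rows beginning with HSPA, HSPB, HSPD, HSPE, HSPH, HSP90, DNAJA or DNAJB, plus HSF1, HSF2, AHSA1 and STIP1. This found 82 of 27452 rows. Of these, 30 were left out as pseudogenes and 1 as antisense, which left 51 member rows, 2 of which carry the symbol HSPA14. By textbook location, 36 belong to the cytosol and nucleus, 7 to the endoplasmic reticulum (ER), 4 to the mitochondrion and 4 to none of these classes. The lines had been made with an shRNA against STAT3 (STAT3 shRNA, 3 libraries) or with a control shRNA (Ctrl shRNA, 3 libraries), and the cells of both were grown in DMEM medium with serum. STAT3 is a transcription factor activated by cytokine receptors. The labels do not say whether the library numbers stand for separate cultures or shRNA sequences. What the p-values weigh is the variation among these libraries, possibly technical, and differences between the constructed lines other than the shRNA cannot be told apart from it.

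Heat shock proteins bind unfolded or unstable proteins and release them in cycles driven by ATP. HSP70 proteins (HSPA genes) do this in every compartment, J-domain proteins (DNAJ genes) deliver substrates to them and start their ATP hydrolysis, and HSP110 proteins (HSPA4, HSPA4L, HSPH1) exchange the nucleotide. HSP90 proteins act later on kinases, receptors and transcription factors, with STIP1 handing clients over from HSP70 and AHSA1 speeding the ATPase. HSPD1 and HSPE1 form the barrel and lid of the mitochondrial chaperonin, and small heat shock proteins (HSPB genes) hold unfolded proteins without ATP. In the nucleus, HSF1 binds heat shock elements, made of repeated GAA units in alternating orientation, and raises many of these genes during stress. In the ER, the ER stress response element (ERSE) plays a similar part for HSPA5 and HSP90B1.

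Promoter sequences were read from RefSeq (GRCh38.p14), from 250 bases before to 50 after each annotated start, and 45 of the 50 member symbols had one or more. The 5 shown are the head-to-head pair HSPD1 and HSPE1, which both fell, HSPB1, which fell, and HSPA8 and HSPA5, the abundant cytosolic and ER HSP70 genes, which were not called. Capitals mark heat shock elements (GAANNTTC or TTCNNGAA) or the ERSE (CCAAT, then 9 bases, then CCACG), searched on both strands. The windows are chr2:197499791-197500090 on the minus strand for HSPD1, chr2:197500129-197500428 on the plus strand for HSPE1, chr7:76302423-76302722 on the plus strand for HSPB1, chr11:123062087-123062386 on the minus strand for HSPA8 and chr9:125241294-125241593 on the minus strand for HSPA5.
HSPD1: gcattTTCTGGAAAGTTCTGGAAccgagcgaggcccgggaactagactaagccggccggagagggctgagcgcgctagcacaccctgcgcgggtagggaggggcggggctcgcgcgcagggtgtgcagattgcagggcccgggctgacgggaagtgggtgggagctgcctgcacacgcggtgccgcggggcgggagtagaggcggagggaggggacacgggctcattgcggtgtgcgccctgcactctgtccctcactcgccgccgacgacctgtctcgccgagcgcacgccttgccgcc
HSPE1: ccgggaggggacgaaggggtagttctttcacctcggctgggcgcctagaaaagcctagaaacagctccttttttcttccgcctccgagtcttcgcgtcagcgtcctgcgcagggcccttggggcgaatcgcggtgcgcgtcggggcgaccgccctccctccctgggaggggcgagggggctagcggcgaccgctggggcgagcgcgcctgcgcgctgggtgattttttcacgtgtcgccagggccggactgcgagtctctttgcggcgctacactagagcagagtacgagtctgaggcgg
HSPB1: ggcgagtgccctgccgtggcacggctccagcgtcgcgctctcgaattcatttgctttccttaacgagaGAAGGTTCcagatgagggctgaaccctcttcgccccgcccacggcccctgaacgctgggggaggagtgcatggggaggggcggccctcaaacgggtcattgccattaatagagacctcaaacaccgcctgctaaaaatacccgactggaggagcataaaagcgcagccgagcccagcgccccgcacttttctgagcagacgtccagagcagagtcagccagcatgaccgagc
HSPA8: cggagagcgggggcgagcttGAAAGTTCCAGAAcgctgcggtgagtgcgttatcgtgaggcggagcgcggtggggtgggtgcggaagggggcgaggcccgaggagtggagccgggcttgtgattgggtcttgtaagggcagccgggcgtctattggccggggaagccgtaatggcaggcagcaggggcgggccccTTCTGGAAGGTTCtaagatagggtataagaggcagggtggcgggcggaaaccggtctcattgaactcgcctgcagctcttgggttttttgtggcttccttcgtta
HSPA5: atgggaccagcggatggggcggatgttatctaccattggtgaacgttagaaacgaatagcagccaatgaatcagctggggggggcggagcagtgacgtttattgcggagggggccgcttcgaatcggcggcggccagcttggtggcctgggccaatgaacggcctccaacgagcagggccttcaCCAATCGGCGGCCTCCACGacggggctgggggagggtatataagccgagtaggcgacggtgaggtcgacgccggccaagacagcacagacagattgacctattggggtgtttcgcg

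HSPD1 has a run of 3 overlapping heat shock element matches at the far end of its window, HSPA8 has 4 matches in 2 blocks and HSPB1 has 1, while the HSPE1 window holds none. A second HSPD1 start has a window that overlaps the HSPE1 window by 204 bases on the opposite strand and also holds no match. A heat shock element match was found in 22 of 62 member windows, or 35.5%, against 13.5% of all 35116 RefSeq windows. Matches to the heat shock element can overlap each other, and the windows are not all separate. HSPA1A and HSPA1L hold the same match on opposite strands, and HSPE1 and HSPE1-MOB4 have the same window. Among members with a promoter, 19 of 31 cytosolic and nuclear genes and 2 of 4 mitochondrial genes (HSPA9 and HSPD1) had one, and 0 of 7 ER genes did. The ERSE stood in HSPA5 and HSP90B1, 2 of 62 windows, against 0.0769% of all windows. The STAT-type motif TTCNNNGAA was found in 1 member window, that of DNAJB12, against 7.66% of all windows. Among genes that fell, 4 of 8 had a heat shock element match (DNAJB6, HSPB1, HSPD1 and STIP1), and among genes tested and not called 14 of 31 did. A match is only a description of these letters.

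Total counts ran from 17408543 to 25862027 per library, and STAT3 itself lay at 34.8, 35.8 and 36.2 CPM (counts scaled to the size and composition of the library) in the STAT3 shRNA libraries, against 262, 247 and 246 CPM in Ctrl shRNA libraries. Markers that define hepatocytes were near the floor: ALB, APOA1, APOA2 and FGG had at most 3 counts in any library. This goes against the HepG2 label, since that line is known to express these genes, so HepG2 is used here only as the name the labels give. The 9 hepatocyte markers measured here summed to 15.4 to 21.6 CPM in STAT3 shRNA libraries and 8.57 to 12.4 CPM in Ctrl shRNA libraries, most of it CEBPA and HNF4A. HNF4A was higher in the STAT3 shRNA libraries (log2 fold change 2.12 ± 0.240, SE), while the other 2 tested hepatocyte markers were not called, CEBPA at 0.41 ± 0.186 and TF at -0.97 ± 0.518. Leukocyte markers summed to 20.8 to 28.2 CPM, against 11.2 to 15.7 CPM, nearly all of it CD68, which was higher (0.83 ± 0.173). CD14 and LYZ, the other leukocyte markers measured, had too few counts to be tested. Fibroblast markers summed to 35.6 to 37.3 CPM, against 53.2 to 61.2 CPM, with COL1A1 lower (-1.40 ± 0.108). The other 2 tested fibroblast markers, DCN (0.30 ± 0.134) and PDGFRB (0.33 ± 0.183), were not called and had the opposite sign. The part of these shifts in the results below was not tested. In bulk libraries, fewer cells of a type and less RNA per cell cannot be told apart. Ctrl shRNA library 1 stood apart from the other libraries on the second principal component, at 44.3 against -31.1 to 9.48 for the rest, so counts are also given without it.

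Of the 51 members, 45 were tested and 9 were called at an adjusted p under 0.05 (edgeR quasi-likelihood test with Benjamini-Hochberg adjustment over all 14999 genes tested): 8 fell and 1 rose. As shares this is 17.8% lower and 2.22% higher, where over all tested genes 8.13% were lower and 9.39% higher (17.5% in either direction). The groups did not overlap for 18 of the 45, or 40%, against 35.7% of all tested genes. The median log2 fold change of the tested members, STAT3 shRNA over Ctrl shRNA, was -0.09, against -0.01 over all tested genes. The 6 members not tested (HSPA1A, HSPA1B, HSPB2, HSPB6, HSPB9 and DNAJB13) had at most 18 counts in any library. With library totals in place of composition scaling, 68.7% of all calls were higher instead of 53.6%, and 5 members fell and 2 rose. Upper-quartile scaling gave 5 and 1. Of all 14999 genes tested, 874 fell and 1916 rose with library totals, and 1006 fell and 1661 rose with upper-quartile scaling. Without Ctrl shRNA library 1, 11 members fell and 3 rose, where 13.1% and 13.4% of all genes tested did. Without Ctrl shRNA library 2, STAT3 shRNA library 1 or STAT3 shRNA library 3, the count of members that fell was 3. In these fits 708 of 15448, 666 of 15267 and 675 of 15365 genes tested fell. Without any of 4 libraries (Ctrl shRNA 2 or 3, STAT3 shRNA 1 or 2) no member rose. There, 819 of 15448, 1340 of 15341, 796 of 15267 and 1100 of 15268 genes tested rose. HSPD1, DNAJB2 and HSPA2 were called lower in all 12 alternative fits.

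**Figure D1:**
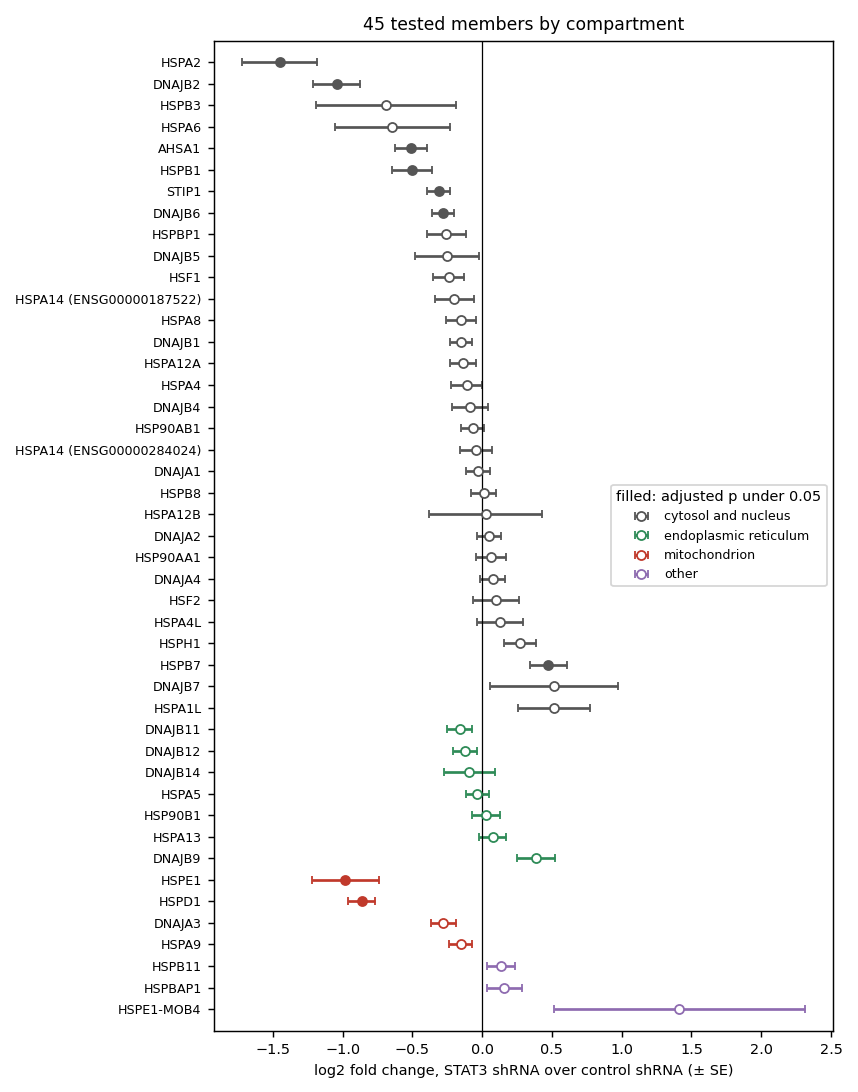
Log2 fold change, STAT3 shRNA over Ctrl shRNA (x axis, ± SE from the edgeR fit), of the 45 tested members (rows), coloured by compartment and filled where the adjusted p was under 0.05. The 2 mitochondrial chaperonin genes lie near -0.9, the 7 ER members between -0.16 and 0.39 without a call, and the cytosolic and nuclear members on either side of 0.

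Of the 4 mitochondrial members, the chaperonin genes HSPD1 and HSPE1 fell, and the other 2, HSPA9 and DNAJA3, did not pass the test. That is 50% lower, against 8.13% of all tested genes (17.5% called in either direction). HSPD1 and HSPE1 are adjacent on chromosome 2, where 18 and 19 of their 40 neighbouring tested genes were also called lower. Each of the pair is itself counted among the neighbours of the other. HSPD1 and HSPE1 are therefore not separate observations, and the part of the neighbourhood was not tested. HSPD1, the barrel subunit also known as HSP60, lay at 876, 794 and 887 CPM in STAT3 shRNA libraries, against 1688, 1567 and 1399 CPM in Ctrl shRNA libraries. All 3 STAT3 shRNA libraries were below all 3 Ctrl shRNA libraries, with a wide gap. Its log2 fold change was -0.86 ± 0.0962 (SE; edgeR adjusted p = 0.000372), or 1.82-fold lower, and -0.79 without Ctrl shRNA library 1.

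HSPE1, the lid subunit also known as HSP10, lay at 86.7, 125 and 79.3 CPM in STAT3 shRNA libraries, against 134, 219 and 221 CPM in Ctrl shRNA libraries. The groups did not overlap, but STAT3 shRNA library 2 and Ctrl shRNA library 1 came close to each other. The log2 fold change was -0.98 ± 0.238 (edgeR adjusted p = 0.0281). The call was lost by leaving out Ctrl shRNA library 2 or 3 or STAT3 shRNA library 1 or 3, and also with no filter on low counts, with an adjusted p of up to 0.150 (edgeR). Per kilobase of transcript, the mean level of HSPD1 was 347 CPM in STAT3 shRNA and 632 CPM in Ctrl shRNA libraries, and that of HSPE1 was 102 and 201 CPM. Pseudogenes and other genes share exact 50-base windows with 13.2% of the HSPD1 and 11.7% of the HSPE1 transcript sequence, so some of their reads could be counted elsewhere.

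HSPA9, the mitochondrial HSP70 that also pulls proteins in through the inner membrane, lay at 569, 545 and 599 CPM, against 659, 643 and 603 CPM (log2 fold change -0.15 ± 0.0814, edgeR adjusted p = 0.235). DNAJA3, its J-domain partner, lay at 119, 122 and 114 CPM, against 133, 143 and 155 CPM (-0.28 ± 0.0894, edgeR adjusted p = 0.0625). The STAT3 shRNA libraries were below the Ctrl shRNA libraries for both genes, by small margins, and neither passed the threshold. The DNAJA3 call was made by DESeq2 and by edgeR without Ctrl shRNA library 1. Summed, the 4 mitochondrial members came to 1650, 1586 and 1679 CPM in STAT3 shRNA libraries, against 2614, 2572 and 2378 CPM in Ctrl shRNA libraries. HSPD1 and HSPE1 accounted for most of that difference: together they averaged 949 ± 26.3 CPM, against 1743 ± 107 CPM, while HSPA9 and DNAJA3 together averaged 689 ± 22.7 CPM, against 779 ± 18.4 CPM (SD, n = 3 each).

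**Figure D2:**
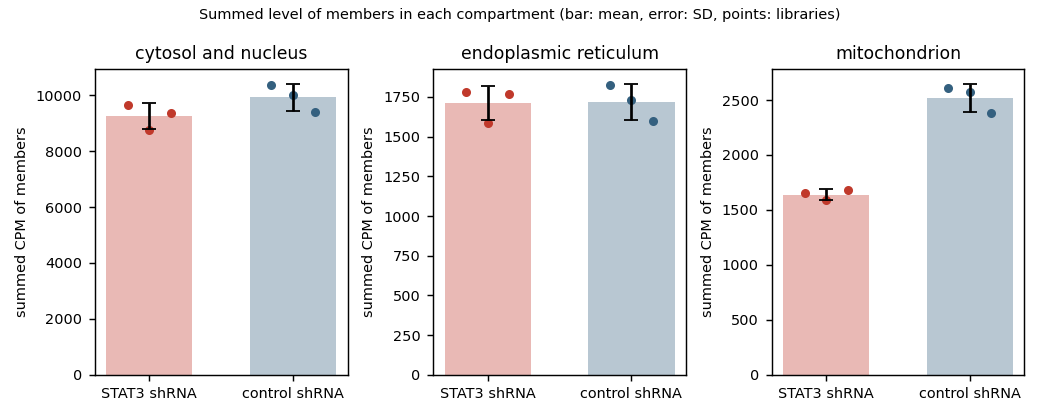
Summed CPM of the members in each compartment (y axis) in STAT3 shRNA and Ctrl shRNA libraries, with bars for the mean, error bars for the SD and points for the 3 libraries of a group. The mitochondrial sum averages 1639 CPM in STAT3 shRNA libraries and 2521 CPM in Ctrl shRNA libraries, while the ER sums of the groups overlap at 1712 and 1718 CPM. Most of the mitochondrial difference lies in the adjacent genes HSPD1 and HSPE1.

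Of the 7 ER members, 0 passed the test, by edgeR or by DESeq2. An unadjusted edgeR p under 0.05 was found for 1 of the 7, against 4709 of all 14999 tested genes. Over all tested genes 17.5% were called by edgeR, and so few genes cannot tell 0 calls from that share. The groups did not overlap for 3 of the 7, or 42.9%, against 35.7% of all tested genes. HSPA5, or BiP, the ER HSP70, lay at 577, 540 and 586 CPM in STAT3 shRNA libraries, against 607, 594 and 545 CPM in Ctrl shRNA libraries. The groups overlapped. The HSPA5 log2 fold change was -0.04 ± 0.0829, and its sign turned with upper-quartile scaling (0.02), with library totals (0.06) and without Ctrl shRNA library 1. HSP90B1, the ER HSP90 also known as GRP94, overlapped as well, at 999, 847 and 985 CPM, against 1008, 917 and 854 CPM (0.03 ± 0.0995), and its sign turned without Ctrl shRNA library 3 or STAT3 shRNA library 1 or 3. The J-domain protein DNAJB9, which regulates IRE1 and helps degrade misfolded proteins, had the lowest unadjusted p of the ER members. It lay at 13.3, 14.3 and 14.1 CPM in STAT3 shRNA libraries, against 12.4, 9.24 and 10.3 CPM in Ctrl shRNA libraries, without overlap (0.39 ± 0.138, edgeR adjusted p = 0.0883). It was called higher with library totals and without Ctrl shRNA library 1. The soluble partner of HSPA5, DNAJB11 (-0.16 ± 0.0897), the membrane-anchored DNAJB12 (-0.12 ± 0.0879) and DNAJB14 (-0.09 ± 0.180), and the HSP70-like HSPA13 (0.08 ± 0.0978) were not called. DNAJB9, DNAJB11, DNAJB12, DNAJB14 and HSPA13 are outside the rule for named genes and are given here to account for every ER member. Over the 7 genes the SE of the log2 fold change was 0.0829 to 0.180.

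In the cytosol and nucleus, 31 of 36 members were tested: 6 fell, 1 rose and 24 did not pass, with a median log2 fold change of -0.11. The share called was 22.6% (19.4% lower, 3.23% higher), against 17.5% of all tested genes (8.13% lower, 9.39% higher). The most abundant chaperones were not among the calls. Summed, these members came to 9650, 8747 and 9368 CPM in STAT3 shRNA libraries, against 10355, 10003 and 9393 CPM in Ctrl shRNA libraries, so the groups lay side by side with STAT3 shRNA library 1 above Ctrl shRNA library 3.

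Of the 11 tested HSP70 and HSP110 rows, 1 fell, or 9.09%, near the 8.13% of all tested genes that were lower. HSPA8, the constitutive HSP70, lay at 2096, 1689 and 1998 CPM in STAT3 shRNA libraries, against 2361, 2091 and 1987 CPM in Ctrl shRNA libraries. The groups overlapped, and the log2 fold change was -0.15 ± 0.108 (edgeR adjusted p = 0.364). HSPA4, an HSP110 exchange factor, also overlapped at 280, 253 and 286 CPM, against 333, 298 and 253 CPM (-0.11 ± 0.111). HSPH1, another HSP110 member, lay at 213, 185 and 211 CPM, against 186, 176 and 144 CPM (0.27 ± 0.113, edgeR adjusted p = 0.139), and was called higher without Ctrl shRNA library 1. HSPA4L gave 0.13 ± 0.164. The 2 rows with the symbol HSPA14, that of a ribosome-associated HSP70, gave -0.20 ± 0.141 (ENSG00000187522) and -0.04 ± 0.114 (ENSG00000284024). These 2 rows share exact windows over only 15.9% and 8.29% of their sequence. Their split of reads is uncertain, and the symbol does not show that both code for this HSP70. The divergent HSPA12A (-0.14 ± 0.0913) and HSPA12B (0.02 ± 0.407) were not called. HSPH1, HSPA4L, HSPA14, HSPA12A and HSPA12B are named outside the rule.

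HSPA2, an HSP70 best known from sperm development, was the member with the largest called change. It had 28, 23 and 20 counts in STAT3 shRNA libraries, against 63, 56 and 44 counts in Ctrl shRNA libraries. That is 1.05, 1.13 and 1.09 CPM, against 3.67, 2.99 and 2.32 CPM, without overlap. Its log2 fold change was -1.45 ± 0.268 (edgeR adjusted p = 0.00573), or 2.73-fold lower, at a low level in either group.

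The stress-inducible HSP70 genes had few counts. HSPA1A had 7, 18 and 5 counts in STAT3 shRNA libraries, against 4, 0 and 2 counts in Ctrl shRNA libraries, and HSPA1B had 17, 4 and 8, against 3, 0 and 7. Both rows fell under the filter on low counts. These genes are near-identical: 71.3% of the exact 50-base windows of HSPA1A and 73.5% of those of HSPA1B also occur in another gene, nearly all in the other of the pair, so how reads of the pair were counted bears on their level. Summed into 1 row, the pair had 24, 22 and 13 counts, against 7, 0 and 9 (log2 fold change 1.60 ± 0.704, edgeR adjusted p = 0.157). HSPA6, a strictly heat-induced HSP70 with 45.5% of windows shared with the pseudogene HSPA7, had 18, 13 and 6 counts, against 11, 19 and 18 counts (-0.64 ± 0.412). HSPA1L, a neighbour of HSPA1A, lay at 2.14, 2.21 and 1.96 CPM, against 1.34, 1.28 and 1.79 CPM (0.51 ± 0.259, edgeR adjusted p = 0.213). HSPA6 and HSPA1L are named outside the rule.

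The cytosolic HSP90 genes were not called, whereas their co-chaperones AHSA1 and STIP1 fell. HSP90AA1, the inducible HSP90, lay at 2437, 2046 and 2300 CPM in STAT3 shRNA libraries, against 2403, 2173 and 1926 CPM in Ctrl shRNA libraries (0.06 ± 0.107). HSP90AB1, the constitutive form, lay at 2267, 2181 and 2271 CPM, against 2415, 2446 and 2187 CPM (-0.07 ± 0.0813). Both overlapped between groups, and the sign of each turned in 1 alternative: HSP90AA1 without Ctrl shRNA library 3, HSP90AB1 with library totals. Per kilobase, the HSP90AA1 mean was 669 CPM in STAT3 shRNA and 641 CPM in Ctrl shRNA libraries, and the HSP90AB1 mean 838 and 879 CPM. The pseudogene HSP90AA2P, left out by the rule, held 88.1, 56.0 and 79.3 CPM, against 82.7, 58.7 and 57.5 CPM. It shares exact windows with 7.97% of the HSP90AA1 sequence.

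AHSA1, which stimulates the HSP90 ATPase, lay at 132, 156 and 130 CPM in STAT3 shRNA libraries, against 173, 210 and 212 CPM in Ctrl shRNA libraries. The groups did not overlap, and Ctrl shRNA library 1 was the lowest of its group. The log2 fold change was -0.51 ± 0.113 (edgeR adjusted p = 0.0136), and the call was lost without Ctrl shRNA library 2 or STAT3 shRNA library 1 or 3, with an adjusted p of up to 0.0766 (edgeR).

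STIP1, the HOP protein that bridges HSP70 and HSP90, lay at 375, 353 and 334 CPM in STAT3 shRNA libraries, against 443, 451 and 425 CPM in Ctrl shRNA libraries. All STAT3 shRNA libraries were lower (-0.31 ± 0.0816, edgeR adjusted p = 0.0288). The call was lost with upper-quartile scaling or library totals and in 4 of the 6 fits that left out a library, the exceptions being Ctrl shRNA libraries 1 and 3. HSPBP1, an HSP70 exchange factor that the symbol rule takes in with the small heat shock proteins, gave -0.26 ± 0.139 (edgeR adjusted p = 0.245) and was called lower without Ctrl shRNA library 1; it is named outside the rule.

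Among the 9 cytosolic and nuclear J-domain members, all tested, DNAJB2 and DNAJB6 fell, or 22.2%, against 8.13% of all tested genes. DNAJB2, a ubiquitin-binding co-chaperone, lay at 18.0, 21.5 and 17.7 CPM in STAT3 shRNA libraries, against 30.6, 38.4 and 48.7 CPM in Ctrl shRNA libraries. The groups were well apart, with a wide spread among Ctrl shRNA libraries. Its log2 fold change was -1.04 ± 0.170 (edgeR adjusted p = 0.00285), or 2.06-fold lower, and -1.18 without Ctrl shRNA library 1.

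DNAJB6, which suppresses the aggregation of polyglutamine proteins, lay at 116, 118 and 117 CPM in STAT3 shRNA libraries, against 146, 144 and 137 CPM in Ctrl shRNA libraries. The gap was small but exceeded the spread in each group (-0.28 ± 0.0781, edgeR adjusted p = 0.0364). This call was lost in 8 of 12 alternative fits, with an adjusted p of up to 0.159 (edgeR), namely with library totals, with upper-quartile scaling, with no filter on low counts, with the library number as a block, and in 4 fits without a library (Ctrl shRNA 2 and each STAT3 shRNA library).

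The most abundant J-domain genes of the cytosol did not pass. DNAJA1, the main class A partner of HSPA8, overlapped at 369, 338 and 370 CPM, against 387, 369 and 345 CPM (-0.03 ± 0.0846), and its sign turned in 4 of 12 alternatives. DNAJB1, the HSP40 protein that heat shock induces with HSP70, lay at 200, 203 and 200 CPM, against 208, 227 and 235 CPM (-0.15 ± 0.0815, edgeR adjusted p = 0.238). Its STAT3 shRNA libraries lay just below the Ctrl shRNA libraries, without a call. The remaining DNAJA2, DNAJA4, DNAJB4, DNAJB5 and DNAJB7 were named outside the rule, with log2 fold changes of 0.05, 0.08, -0.09, -0.25 and 0.51.

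Of 7 small heat shock protein genes, 4 were tested: HSPB1 fell, HSPB7 rose and 2 were not called. As shares this is 25% lower and 25% higher, against 8.13% and 9.39% of all tested genes. HSPB1, or HSP27, the abundant epithelial member, lay at 466, 542 and 457 CPM in STAT3 shRNA libraries, against 557, 689 and 830 CPM in Ctrl shRNA libraries. The groups did not overlap, although STAT3 shRNA library 2 came within a short distance of Ctrl shRNA library 1. HSPB1 fell (log2 fold change -0.50 ± 0.142, edgeR adjusted p = 0.0398). The call was lost in 6 of 12 alternatives, with library totals, upper-quartile scaling and without Ctrl shRNA library 2 or 3 or STAT3 shRNA library 1 or 3, with an adjusted p of up to 0.159 (edgeR).

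HSPB7, known from heart and skeletal muscle, was the member that rose, at 17.4, 20.2 and 15.2 CPM in STAT3 shRNA libraries, against 13.1, 11.9 and 13.1 CPM in Ctrl shRNA libraries (0.47 ± 0.134, edgeR adjusted p = 0.0397). All 3 STAT3 shRNA libraries were higher, STAT3 shRNA library 3 by little. Its call was lost with the library number as a block and without Ctrl shRNA library 2 or 3 or STAT3 shRNA library 1 or 2, with an adjusted p of up to 0.157 (edgeR). HSPB8, which works with BAG3 in selective autophagy, overlapped at 47.0, 42.5 and 42.4 CPM, against 43.5, 44.6 and 43.0 CPM (0.01 ± 0.0913, of the opposite sign without STAT3 shRNA library 1). HSPB3, named outside the rule, had 15, 16 and 7 counts, against 8, 15 and 29 counts. HSPB2, HSPB6 and HSPB9 had at most 6 counts in any library.

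**Figure D3:**
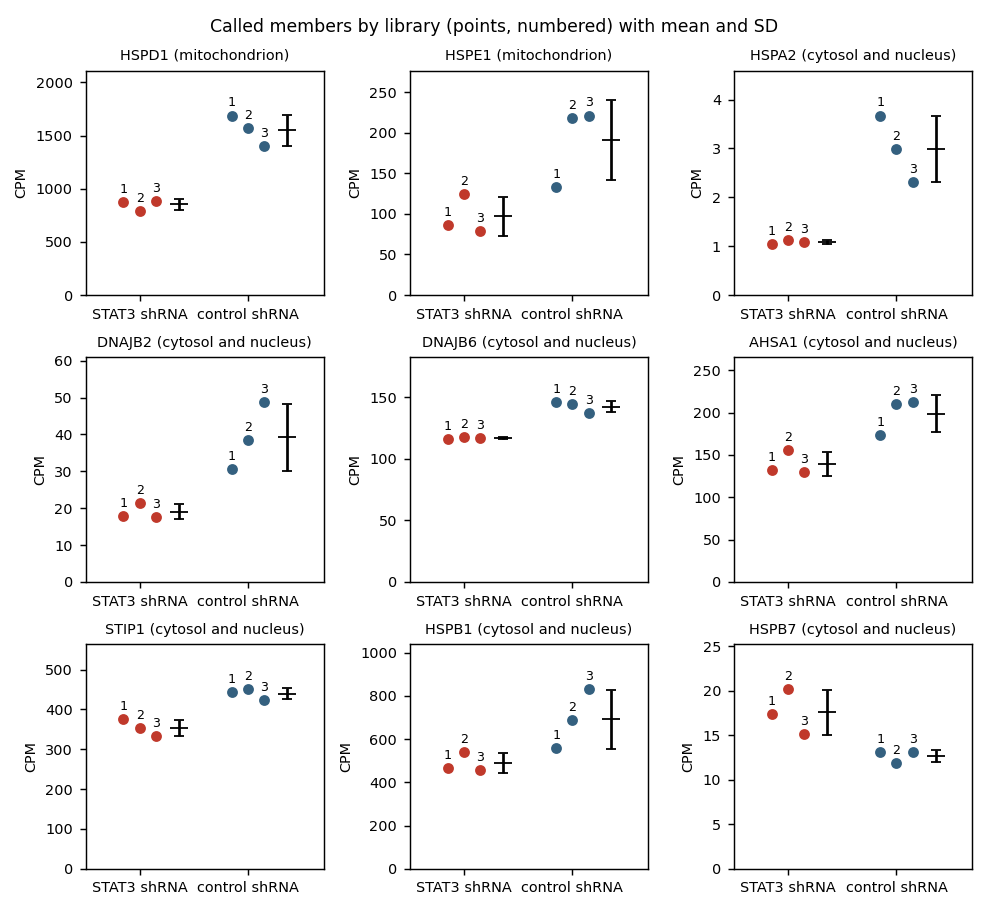
Level in CPM (y axis, from 0) of the 9 called members in the 3 STAT3 shRNA and 3 Ctrl shRNA libraries (points, with library numbers), with the group mean and SD beside them. In HSPD1 and DNAJB6 the groups are tight against their gap, while HSPE1, DNAJB2 and HSPB1 spread widely among the Ctrl shRNA libraries, where library 1 is the lowest.

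Neither HSF1 nor HSF2 was called. HSF1, the main activator of heat shock genes, lay at 108, 111 and 101 CPM in STAT3 shRNA libraries, against 109, 127 and 142 CPM in Ctrl shRNA libraries, and Ctrl shRNA library 1 lay among the STAT3 shRNA libraries (-0.24 ± 0.109, edgeR adjusted p = 0.168). Without Ctrl shRNA library 1 it was called lower (-0.32, edgeR adjusted p = 0.0280). HSF2, a related factor that works in development and together with HSF1, overlapped at 18.5, 13.5 and 19.1 CPM, against 18.7, 14.7 and 14.4 CPM (0.10 ± 0.165). The messenger RNA level of HSF1 is no measure of its activity, which is known to depend on its release from chaperones and on modification.

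Of the 4 members in no compartment class, 3 were tested and 0 called by edgeR or DESeq2. An unadjusted edgeR p under 0.05 was found for 0 of the 3, against 4709 of all 14999 tested genes. So few genes cannot tell 0 calls from the 17.5% of all tested genes called by edgeR. HSPB11, a subunit of intraflagellar transport, lay at 28.1, 28.8 and 30.2 CPM, against 25.7, 28.3 and 25.3 CPM (0.14 ± 0.0986). HSPBAP1, which binds a small heat shock protein, lay at 10.5, 10.4 and 9.92 CPM, against 9.74, 8.97 and 8.86 CPM (0.16 ± 0.122). The readthrough row HSPE1-MOB4, named outside the rule, had 93, 19 and 36 counts, against 18, 0 and 26 counts (1.41 ± 0.900, edgeR adjusted p = 0.332). Exact windows of this row are shared over 94.5% of its length, mostly with MOB4 and HSPE1.

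Some of the calls lay among neighbouring genes that moved as well. For each tested member, the median log2 fold change was taken over the 40 nearest tested genes in gene order on its chromosome. It was at or below -0.4 for 5 of 45 members, against 2.75% of all tested genes with a position. These were DNAJB2 (neighbour median -0.64, with 26 of 40 neighbours called lower), HSPE1 (-0.49, 19 of 40), HSPD1 (-0.42, 18 of 40) and HSPE1-MOB4 (-0.55, 21 of 40) on chromosome 2, and HSPB7 (-0.54, 20 of 40) on chromosome 1. HSPD1, HSPE1 and the readthrough row HSPE1-MOB4 are adjacent and share nearly all of these neighbours, so they are not separate observations. Each is also counted among the neighbours of the others. The 5 of 45 counts this locus more than once. The cut of -0.4 was not planned in advance and falls in a gap of the members' own values. The share beside 2.75% is therefore a description only. HSPB7 rose while its neighbours were mostly lower. For the other 40 members the neighbour median lay between -0.25 and 0.11, with 0.04 for HSPA2, 0.07 for AHSA1, 0.09 for HSPB1, -0.12 for DNAJB6 and -0.18 for STIP1. The part of the neighbourhood in the HSPD1, HSPE1 and DNAJB2 values was not tested.

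**Figure D4:**
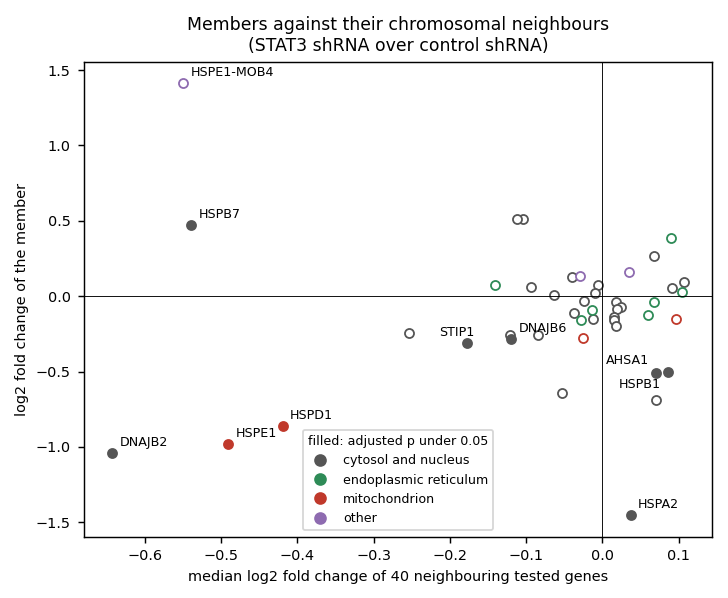
Log2 fold change of each tested member (y axis) against the median log2 fold change of its 40 neighbouring tested genes (x axis), STAT3 shRNA over Ctrl shRNA, coloured by compartment and filled where the adjusted p was under 0.05. DNAJB2, HSPE1 and HSPD1 sit at the lower left with neighbour medians of -0.64 to -0.42, while HSPA2, AHSA1 and HSPB1 fell among neighbours with medians near 0.

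The rest of the folding machinery was counted in lists taken by textbook membership, each read against the 17.5% of all tested genes that were called (9.39% higher, 8.13% lower). Of 20 tested mitochondrial folding and proteolysis genes outside the symbol rule, 4 fell and 0 rose, a share called of 20% against 17.5% of all tested genes (median log2 fold change -0.14). TRAP1, the mitochondrial HSP90, lay at 327, 325 and 322 CPM in STAT3 shRNA libraries, against 393, 421 and 452 CPM in Ctrl shRNA libraries (-0.38 ± 0.0827, edgeR adjusted p = 0.0132). The protease LONP1 (-0.48 ± 0.120), the import motor anchor TIMM44 (-0.44 ± 0.121) and HSCB, a J-domain protein of iron-sulfur cluster assembly (-0.43 ± 0.121), also fell. Over the list, the groups did not overlap for 5 of 20 genes, or 25%, against 35.7% of all tested genes. Without Ctrl shRNA library 2 or STAT3 shRNA library 1 or 3 the count of genes that fell was 0. It was 1 without Ctrl shRNA library 3 and 2 with library totals or upper-quartile scaling. Without Ctrl shRNA library 1 it was 6, where 13.1% of all genes tested in that fit were lower.

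Of 38 ER folding genes, 2 rose and 2 fell, or 10.5% called (median 0.03). HERPUD1, which serves ER-associated degradation, lay at 109, 107 and 115 CPM, against 68.3, 68.1 and 67.5 CPM (0.70 ± 0.0791, edgeR adjusted p = 0.000406), a tight and complete separation. The disulfide isomerase PDIA6 rose (0.39 ± 0.0754), and SIL1, the exchange factor of HSPA5 (-0.57 ± 0.136), and the reductase DNAJC10 (-0.41 ± 0.120) fell. Leaving out Ctrl shRNA library 1 gave 6 higher and 3 lower, where 13.4% and 13.1% of all genes tested in that fit were. In this list 0 fell without Ctrl shRNA library 2 or STAT3 shRNA library 1 or 3, and 1 fell without STAT3 shRNA library 2. Without Ctrl shRNA library 2, 1 rose.

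Of 27 further HSP90 and HSP70 co-chaperones, 1 rose and 2 fell, or 11.1% called (median -0.02). FKBP4, an HSP90-bound immunophilin of steroid receptors, lay at 221, 251 and 203 CPM, against 268, 307 and 340 CPM (-0.44 ± 0.116, edgeR adjusted p = 0.0299), and the autophagy adaptor BAG3 fell (-0.29 ± 0.0850), while BAG4 rose (0.50 ± 0.150). The BAG4 call had an adjusted p of 0.0492 (edgeR). Leaving out any library other than Ctrl shRNA library 1 gave at most 1 call in this list. Leaving out Ctrl shRNA library 1 gave 3 higher and 6 lower, where 13.4% and 13.1% of all genes tested in that fit were.

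The TRiC chaperonin and prefoldin genes, 18 tested, had 0 calls by edgeR and 1 lower by DESeq2. An unadjusted edgeR p under 0.05 was found for 4 of the 18, against 4709 of all 14999 tested genes. Of the 18 log2 fold changes, 15 were below 0 (median -0.14), against 7636 of all 14999 (median -0.01). CCT5 lay at 1478, 1268 and 1430 CPM, against 1715, 1638 and 1637 CPM (-0.26 ± 0.0865, edgeR adjusted p = 0.0732), and CCT3 at 901, 882 and 877 CPM, against 985, 994 and 1053 CPM (-0.19 ± 0.0759). Leaving out Ctrl shRNA library 1 gave 4 genes lower, where 13.1% of all genes tested in that fit were lower.

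Of 29 DNAJC co-chaperones, 3 rose and 3 fell, or 20.7% called, near the share of all tested genes (median -0.04). DNAJC12, which assists the aromatic amino acid hydroxylases, lay at 27.3, 23.8 and 25.6 CPM, against 11.4, 10.8 and 12.3 CPM (1.15 ± 0.111, edgeR adjusted p = 0.000176). DNAJC22 (1.33 ± 0.164) and DNAJC6, or auxilin, which strips clathrin coats (0.53 ± 0.123), also rose, and DNAJC25 fell (-0.68 ± 0.100). The other 2 that fell, DNAJC10 and HSCB, were given above, since lists share members. The count of genes that fell was 1 without Ctrl shRNA library 2 or any 1 of the STAT3 shRNA libraries. The last list, called heat shock factor regulators below, also holds another heat shock factor, HSF4. Of its 11 tested genes, 1 rose and 2 fell, or 27.3% called (median -0.19). The deacetylase SIRT1, which acts on HSF1, rose (0.44 ± 0.131), and FKBP4 and HSBP1L1 (-0.43 ± 0.116) fell. HSF4, named outside the rule, was not called (-0.33 ± 0.282). This list had 0 calls in each fit that left out Ctrl shRNA library 2, STAT3 shRNA library 1 or STAT3 shRNA library 3.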

How the data were processed

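The deposited table held whole-number counts per gene for 6 libraries; what program, strand setting, genome build and annotation made them is not given in the sources used here, so no position of the table is printed. Groups and library numbers came from the labels. The members and gene lists were chosen with earlier results of these data known. The fit used edgeR 4.0.16 under R 4.3.3: filterByExpr (minimum count 10, minimum total 15), TMM scaling, which assumes that most genes do not differ, and a robust two-sided quasi-likelihood F test on group, adjusted over 14999 genes at 0.05. An SE is the log2 fold change over the square root of F. Alternatives were other scalings, no filter, DESeq2 1.42.0, a block on library number and each library left out; the procedure was tested on simulated data. Named genes were all called members, the 2 members with the highest mean CPM per class, HSF1, HSF2, AHSA1, STIP1, HSPA1A, HSPA1B and STAT3, and up to 4 called genes per list with the smallest adjusted p (the 2 with the highest mean CPM where none was called). Genes named outside this rule were chosen after their values were seen. Gene type, order and transcript length (longest APPRIS principal) came from GENCODE 29, matched by identifier without version. Shared windows are exact 50-base matches among GENCODE 29 transcripts. Protein sequences were not used here. Libraries of a group differed by 4.20 to 43.0 in chi-square per degree of freedom, so none repeats another.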

Additional observations from a re-analysis of the deposited data

How the results depend on the processing

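Of the 9 called members, HSPD1, DNAJB2 and HSPA2 kept their direction and call in all 12 alternatives. Over all genes, 2627 were called; leaving out 1 library gave 1462 to 4098, with 796 to 2068 higher and 666 to 2030 lower, and DESeq2 gave 3009. Over the same fits 0 to 3 members were called higher and 3 to 11 lower, cytosolic and nuclear members 0 to 2 higher and 2 to 8 lower, ER members 0 to 1 higher, and mitochondrial members 1 to 3 lower. With library totals 2 members were higher and 5 lower (cytosolic and nuclear 3 lower, ER 1 higher), with upper-quartile scaling 5 lower (cytosolic and nuclear 3), and without the filter 1 mitochondrial member was lower.

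The labels number libraries 1 to 3 in each group, but same-numbered libraries did not deviate together (correlations of deviations 0.279, 0.191 and -0.227). With a replicate block 2278 of 14999 genes tested were called, 1210 higher and 1068 lower. Of the 45 members tested, 0 were higher and 7 lower (cytosolic and nuclear 0 and 5). In the other lists the block gave 1 DNAJC gene, 1 ER folding gene and 1 co-chaperone lower. It gave 0 heat shock factor regulators higher and 1 lower.

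Lower counts with upper-quartile scaling and library totals were 1 and 1 for DNAJC genes, 1 and 1 for ER folding genes, 1 and 0 for co-chaperones, 1 and 0 for heat shock factor regulators, and 2 and 2 for mitochondrial folding genes. Co-chaperones called higher were 0 with RLE factors and 2 with library totals, 1 was lower without the filter, and DESeq2 called 1 TRiC gene lower. Leaving out 1 library gave 2 to 4 higher and 1 to 4 lower for DNAJC genes, 1 to 6 and 0 to 3 for ER folding genes, 0 to 3 and 0 to 6 for co-chaperones, 0 to 4 lower for TRiC genes, 0 to 1 and 0 to 2 for heat shock factor regulators, and 0 to 6 lower for mitochondrial folding genes. Signs turned for uncalled genes: HSP90AB1 (0.0266 with library totals), DNAJA1 (0.0214 with upper-quartile scaling, 0.0638 with library totals, -0.0685 to 0.0196 leaving out 1 library) and HSPA5 (0.0164, 0.0587 and -0.0769 to 0.00708 likewise). Leaving out 1 library also turned HSP90AA1 (-0.0123 to 0.153), HSPB8 (-0.0412 to 0.0342) and HSP90B1 (-0.0237 to 0.103). The cause was not tested. Summing HSP90AA1 with HSP90AA2P, or the HSPA14 rows, was chosen after seeing the data and changed no call of a member. Counts of at most 18 limit HSPA1A, HSPA1B and the other untested members.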
